A study of Mus musculus with 6 samples.

Results

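The Prrg genes encode transmembrane proteins that depend on vitamin K, and they were examined here together with the enzymes of the vitamin K cycle in mouse liver. The 6 genes are Prrg4, Prrg2, Prrg3, Ggcx, Vkorc1 and Vkorc1l1. They were taken by symbol from the platform annotation, and the brightest probe set of each gene by its mean over all arrays was used. All 6 were measured, by 7 probe sets, among 19938 genes with a symbol of their own. Prrg4 was chosen by its rise, that is, on its measured HFD and RD values in these arrays, and the others entered as its paralogs and as vitamin K cycle enzymes. The differences of these 6 genes between the diets are therefore given as a description, with an interval and no test. Prrg1, the remaining paralog on the array, lies outside the set and is given beside it.

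The arrays measured total RNA from frozen liver of C57BL/6 mice, an inbred laboratory strain. The mice had eaten a regular diet (RD) or a high fat diet (HFD) without restriction for 2 days, with 3 biological replicates and 3 arrays per diet. Every sample title includes the letters NI. Their meaning is not stated in the labels, and whether both groups shared a further condition is unknown. Age, sex and diet composition were not used here. Checked against the tissue label, the 8 hepatocyte markers measured, albumin among them, had mean log2 levels of at least 11.90.

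In the vitamin K cycle, the carboxylase encoded by Ggcx turns glutamate residues of its substrates into gamma-carboxyglutamate (Gla), which binds calcium, and oxidises reduced vitamin K to its epoxide as it does so. The reductase encoded by Vkorc1, the target of warfarin, returns the epoxide to the active form, and Vkorc1l1 encodes a related reductase. In liver the best known substrates are secreted clotting factors. The Prrg proteins instead carry a Gla domain outside the cell, span the membrane, and have a cytoplasmic tail with PPXY motifs that can bind WW domain proteins such as YAP and the NEDD4 family ubiquitin ligases.

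Prrg4 was higher on every HFD array than on every RD array, whereas the values of Prrg2 and Prrg3 overlapped between the diets. The log2 expression of Prrg4 (probe set 10485624) was 6.88, 6.65 and 7.41 on RD arrays 1 to 3 and 8.87, 8.64 and 8.69 on HFD arrays 1 to 3. RD replicate 3 was the highest RD array, and the HFD arrays lay close together. The means were 6.98 ± 0.39 in RD and 8.73 ± 0.12 in HFD (SD, n = 3 each). The difference, HFD minus RD, was 1.75 ± 0.17 on the log2 scale (moderated SE, limma), with a 95% interval from 1.35 to 2.15, which is 3.37-fold. With arrays removed singly it lay between 1.59 (RD replicate 2 removed) and 1.97 (RD replicate 3 removed). More cells of a type that expresses Prrg4 and more RNA per cell cannot be told apart in these bulk samples.

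**Figure D1:**
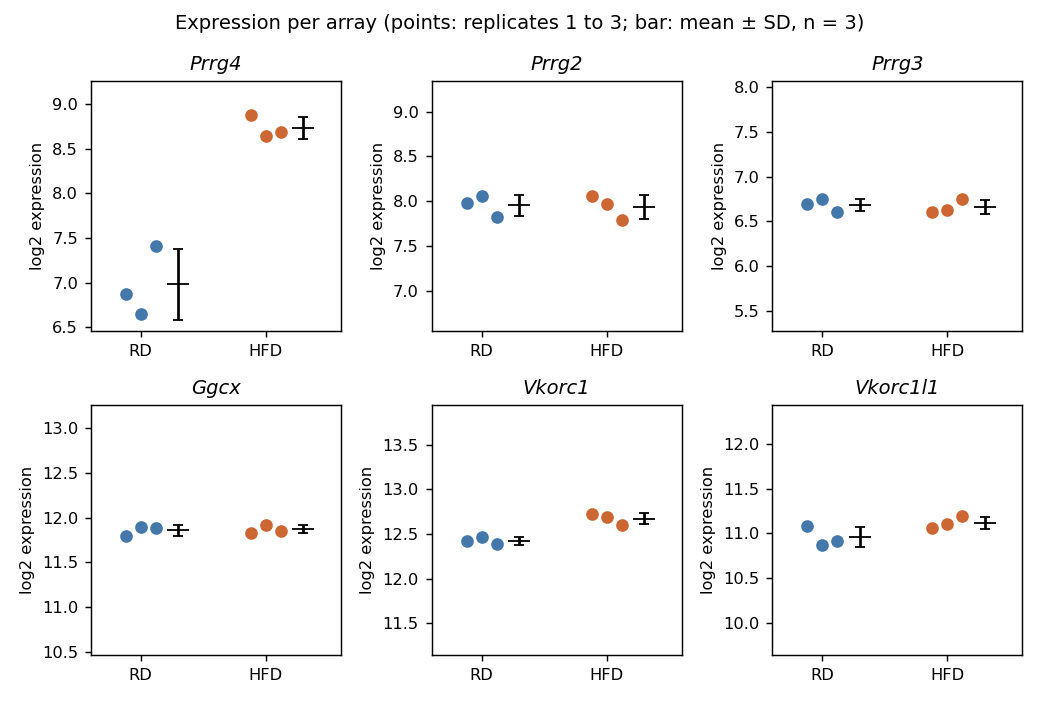
Log2 expression (y axes, all of the same span) of the 6 genes on 3 RD and 3 HFD arrays. Points are arrays in the order of their replicate numbers, and the bars are the mean ± SD. The HFD values of Prrg4 (8.64 to 8.87) lie above its RD values (6.65 to 7.41), and those of Prrg2, Prrg3, Ggcx and Vkorc1l1 overlap between the diets.

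The paralogs gave differences near 0. Prrg2 (probe set 10563068), whose protein is also known as a binder of NEDD4, measured 7.98, 8.05 and 7.83 on the RD arrays and 8.06, 7.97 and 7.79 on the HFD arrays. These groups overlapped, with a difference of -0.02 ± 0.09 and an interval from -0.23 to 0.20. Prrg3 (probe set 10600044) measured 6.69, 6.75 and 6.61 in RD and 6.61, 6.63 and 6.75 in HFD. Its difference was -0.02 ± 0.07, with an interval from -0.19 to 0.14. The sign of both differences depended on scaling, since Prrg2 turned positive with median centring and Prrg3 with quantile normalization. Prrg1 (probe set 10605493) measured 6.77, 6.68 and 6.62 in RD and 6.51, 6.74 and 6.53 in HFD, which overlap. Its difference was -0.10 ± 0.08, with an interval from -0.29 to 0.09.

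Among the enzymes, the carboxylase gene showed a difference near 0 and the reductase genes had positive differences far smaller than that of Prrg4. Ggcx (probe set 10539119) measured 11.79, 11.90 and 11.89 in RD and 11.83, 11.92 and 11.85 in HFD. The HFD values fell within the RD range but for replicate 2, and the difference was 0.01 ± 0.07, with an interval from -0.14 to 0.16. Vkorc1 (probe set 10568328) measured 12.42, 12.47 and 12.38 in RD and 12.72, 12.69 and 12.60 in HFD. Every HFD value of Vkorc1 lay above every RD value, by a difference of 0.25 ± 0.07 with an interval from 0.09 to 0.40, which is 1.19-fold.

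Vkorc1l1 was measured by a pair of probe sets. On the brighter one (10431014) the RD values were 11.08, 10.87 and 10.92 and the HFD values 11.06, 11.10 and 11.19, so that RD replicate 1 lay above the lowest HFD array. The difference was 0.16 ± 0.08, with an interval from -0.02 to 0.34. On the other one (10526106) the RD values were 11.00, 10.80 and 10.91 and the HFD values 10.96, 10.99 and 11.06, again with overlap. Both probe sets gave a small positive difference, 0.16 on the first and 0.10 on the second. Each of the other 5 genes had only 1 probe set, so no second measurement of Prrg4 was at hand.

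**Figure D2:**
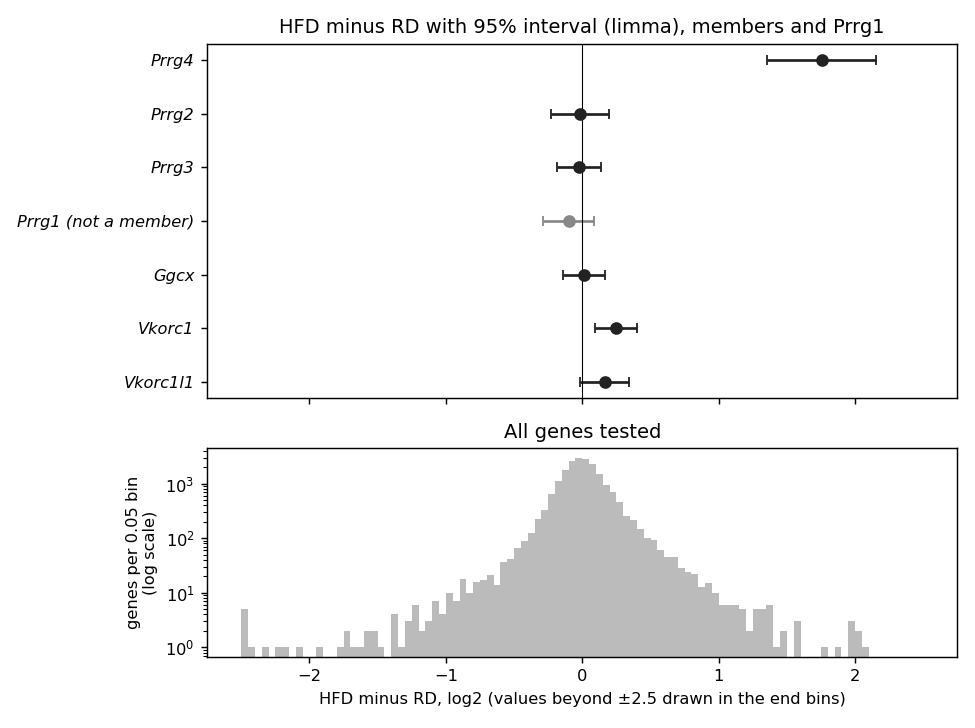
HFD minus RD on the log2 scale (x axis). The upper panel gives each gene with its 95% interval from limma, with Prrg1 in grey because it is outside the set, and the lower panel gives the distribution over all 19938 genes on a log count axis. Prrg4 lies at 1.75, and the others lie between -0.10 and 0.25.

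Set against each other within each array, Prrg4 moved apart from every other gene of the set. Its change exceeded that of Prrg2 by 1.77 ± 0.30 log2 units (SE), with a 95% interval from 0.94 to 2.60, and that of Prrg3 by 1.78 ± 0.28 (interval 0.99 to 2.57). It exceeded the change of Prrg1 by 1.85 ± 0.29 (interval 1.06 to 2.65). Against the enzymes the excess was 1.74 ± 0.24 for Ggcx (interval 1.07 to 2.41), 1.51 ± 0.26 for Vkorc1 (interval 0.79 to 2.22) and 1.59 ± 0.26 for Vkorc1l1 (interval 0.88 to 2.30). The excess over the mean of Prrg2 and Prrg3 stayed between 1.57 and 2.04 when 1 array was left out, and that over the mean of the 3 enzymes between 1.45 and 1.84. These intervals describe the spread between arrays, and they support no inference about Prrg4, which was chosen for its change.

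Across all genes, 5.35% differed between the diets in limma at a Benjamini-Hochberg adjusted p under 0.05, of which 621 were higher and 446 lower in HFD. Of the 6 genes of the set 1, Prrg4, was among them, a count set by its choice on this contrast, from which nothing is read. Without 1 array the number of higher genes was 197 to 371 and that of lower genes 178 to 273. In 2 of the 6 genes, Prrg4 and Vkorc1, the diets did not overlap and HFD was the higher. Groups without overlap were seen for 25.7% of all genes, and with HFD the higher for 14%. The median difference was 0.09 over the 6 genes and 0.00 over all genes. Array medians ran from 7.06 to 7.11.

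The spread within a diet also differed among the genes of the set. For Prrg4 it was computed from the array values on which that gene was chosen. Its independence of the choice was not tested, and the values are given as a description. The residual SD of Prrg4 around the diet means was 0.29 log2 units, at the 97.9th percentile of all genes, against a median of 0.10. The SD was 0.39 in RD against 0.12 in HFD, and it rested on RD replicate 3. Without that array the RD SD of Prrg4 was 0.16 and its residual SD 0.14, at the 72.5th percentile, and with any other array removed the percentile was at least 95.2. The residual SD was 0.13 for Prrg2 (67.3rd percentile), 0.09 for Vkorc1l1 (42.4th), 0.07 for Prrg3 (25.7th), 0.05 for Vkorc1 (12.8th) and 0.05 for Ggcx (12.4th). Ggcx and Vkorc1 thus varied less within a diet than most genes did.

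Signals of the Prrg genes other than Prrg2 were low in RD. Since detection calls were not used here, the 1027 olfactory receptor genes on the array were taken as a description of dim signal, with a median mean log2 level of 4.75 and a 95th percentile of 6.49. Prrg3 at a mean of 6.67 and Prrg1 at 6.64 lay just above that percentile, and whether either was detected was not tested. Prrg4 exceeded 98.1% of the olfactory receptor genes in RD and 99.8% in HFD, and rose from the 41.2nd to the 66.3rd percentile of all genes. Prrg2 exceeded 99.6% of them, and Ggcx, Vkorc1 and Vkorc1l1 exceeded all of them. Ggcx lay at the 95.6th, Vkorc1 at the 97.7th and Vkorc1l1 at the 91.3rd percentile of all genes by mean signal.

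The genes whose centred profiles over the 6 arrays lay nearest to that of Prrg4, by Euclidean distance in log2 units, were Gadd45b (0.54), Slc41a2 (0.60), Dhrs9 (0.61), Cbr3 (0.63) and Srxn1 (0.64), of 17162 candidates. Gadd45b is a stress-inducible gene, Slc41a2 encodes a magnesium transporter, Dhrs9 a retinol dehydrogenase, Cbr3 a carbonyl reductase and Srxn1 sulfiredoxin. Slc41a2 measured 9.78, 9.64 and 10.09 in RD and 11.19, 11.20 and 11.10 in HFD, a difference of 1.32 ± 0.11. Its RD replicate 3 was the highest RD array, as it was for Prrg4. Gadd45b measured 7.20, 6.91 and 7.48 in RD and 9.22, 9.11 and 9.47 in HFD, a difference of 2.07 ± 0.15. Its lowest RD array was replicate 2 and its highest replicate 3, as for Prrg4. The other 3 genes also had replicate 3 as their highest RD array, but their lowest was replicate 1. Dhrs9 measured 6.87, 7.12 and 7.52 in RD and 8.50, 8.79 and 8.71 in HFD, a difference of 1.49 ± 0.16. Cbr3 measured 5.94, 6.30 and 6.38 in RD and 7.92, 7.51 and 7.96 in HFD, a difference of 1.59 ± 0.15. Srxn1 measured 9.58, 9.63 and 9.72 in RD and 11.05, 11.08 and 11.17 in HFD, a difference of 1.46 ± 0.07. Within HFD none of these genes shared the highest array of Prrg4, which was replicate 1. It was replicate 2 for Slc41a2 and Dhrs9 and replicate 3 for Gadd45b, Cbr3 and Srxn1. The genes were picked by their distance over these same arrays, so both the diet difference and a like order within RD are built into the choice, and no test was made.

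**Figure D3:**
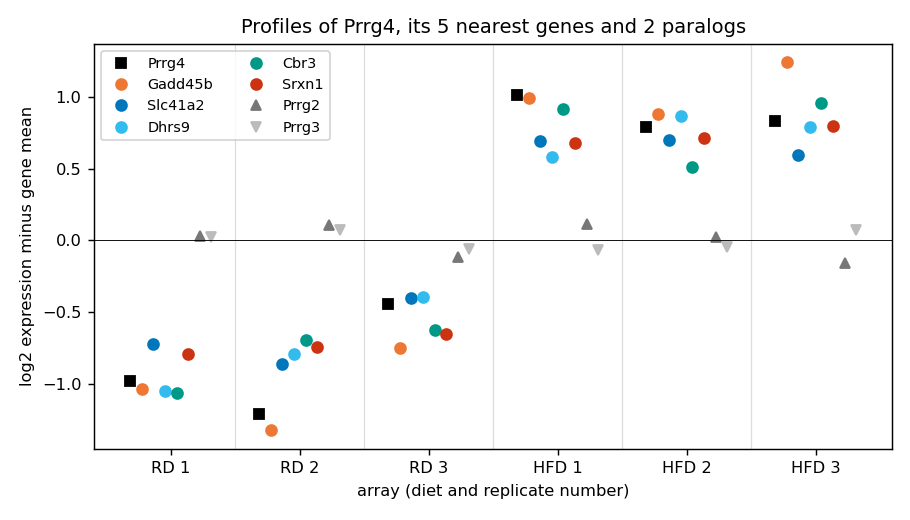
Log2 expression minus the gene's own mean over the 6 arrays (y axis) on each array (x axis) for Prrg4, its 5 nearest genes and the paralogs Prrg2 and Prrg3. Each symbol is 1 array value. Prrg4 and its nearest genes lie below 0 on the RD arrays and above 0 on the HFD arrays, while Prrg2 and Prrg3 stay near 0.

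The promoter of Prrg4 is shown so that its letters can be set beside those of its paralogs and of the genes nearest to it in profile. The stretch below, from the RefSeq promoter table (GRCm38.p6, chr2:104849873-104850100, minus strand), holds 228 of the 250 bases before the start, written 5′ to 3′. The bases nearest the start lie inside the annotated gene and are not printed. Positions are counted from the start and not from the end of the printed stretch. Capitals mark a match to TGACNNNGC, the core of the antioxidant response element, which was searched on both strands of the 250 bases before each start.
Prrg4: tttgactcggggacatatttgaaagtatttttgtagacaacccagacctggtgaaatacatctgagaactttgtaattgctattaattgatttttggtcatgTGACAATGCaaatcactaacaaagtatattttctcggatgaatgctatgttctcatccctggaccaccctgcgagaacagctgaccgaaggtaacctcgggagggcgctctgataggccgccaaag

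The match in Prrg4 began 148 bases before the start and overlapped a match to the octamer ATGCAAAT. The response element core was found in 10.2% of all 32851 promoter windows, and the octamer in 1.6%. The same core also matched in a window of Prrg3, whose difference was near 0, and in that of Slc41a2. No match to it lay in the windows of Prrg2, Prrg1, Ggcx, Vkorc1, Vkorc1l1, Gadd45b, Dhrs9, Cbr3 or Srxn1. The matched bases are given in capitals on the gene's strand, where Prrg3 (chrX:71962442-71962470, plus strand) holds the reverse complement and Slc41a2 (chr10:83337907-83337935, minus strand) the forward letters.
Prrg3: agcagcacggGCGCAGTCAggggcggcgc
Slc41a2: cacttggctcTGACCCTGCcaggcgctcg

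The GC box GGGCGG was present in 32.7% of all windows. It was absent from the window of Prrg4 and present in the windows of Prrg2, Prrg3, Prrg1, Ggcx, Vkorc1 and Vkorc1l1. Of the genes nearest in profile, Gadd45b, Dhrs9, Cbr3 and Srxn1 held it and Slc41a2 did not. There were 5 matches in the window of Vkorc1l1 and 6 over the 2 windows of Prrg3. Prrg1 also had 2 windows, against 1 for Prrg4. The CCAAT box CCAAT (33.8% of windows) was found in Vkorc1 and Vkorc1l1, and Gadd45b held 2 matches to it. The AP-1 motif TGANTCA (6.75% of windows) and the E-box CACGTG (6.02%) were found in none of the set genes nor in Prrg1. Among the nearest genes Srxn1 held 2 matches to AP-1, Dhrs9 held 1 and Gadd45b held an E-box. A match is a description of letters and not a bound site.

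The secreted vitamin K dependent proteins, the classical products of this cycle in liver, gave no call. Of 10 measured (of 12 listed), 0 were higher and 0 lower in limma at an adjusted p under 0.05, against 3.11% higher and 2.24% lower over all genes. At an unadjusted p under 0.05 in limma there were 4, against 19.7% of all genes. The median difference was -0.02. The ends of the range were Proz, the cofactor protein Z, at -0.33 ± 0.09 and Mgp, matrix Gla protein, at 0.39 ± 0.12, both named after their values were seen. The clotting protease genes, likewise named after their values were seen, gave -0.13 ± 0.06 for F2, -0.02 ± 0.08 for F7, -0.10 ± 0.07 for F9 and -0.19 ± 0.06 for F10. These differences are on the log2 scale and none of the 4 passed the test.

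In the list of vitamin K uptake and conversion, 1 of 9 measured genes rose and 1 fell (median difference 0.03). Over all genes 3.11% were higher and 2.24% lower. At an unadjusted p under 0.05 in limma there were 4 of the 9, against 19.7% of all genes. Nqo1 encodes a quinone reductase that can also reduce vitamin K. It measured 7.37, 7.61 and 7.41 in RD and 8.95, 8.81 and 9.39 in HFD, with every HFD array above every RD array. The rise was 1.59 ± 0.14 (limma, adjusted p = 9.1e-04). Cyp4f14, a cytochrome of the family that hydroxylates the vitamin K side chain, measured 12.76, 12.73 and 12.69 in RD and 12.04, 12.27 and 12.03 in HFD. It fell by 0.61 ± 0.08 on the log2 scale (limma, adjusted p = 0.0057), and the groups did not overlap. Both calls held when any 1 array was left out, at adjusted p values up to 0.0072 for Nqo1 and up to 0.031 for Cyp4f14.

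The partners of the carboxylase and the reductases in the endoplasmic reticulum, which include protein disulfide isomerases and the carboxylase inhibitor calumenin, gave no call. Of 8 measured, 0 passed in either direction in limma, 1 had an unadjusted p under 0.05 (19.7% of all genes), and the median difference was 0.07. The range ran from -0.28 for Tmx4 to 0.15 for Tmx1, membrane thioredoxins named after their values were seen.

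The list of WW domain proteins and YAP targets was chosen because the tails of Prrg proteins can bind WW domains. It held 1 rise and 1 fall among 15 genes, with a median difference of 0.03. The shares over all genes were 3.11% higher and 2.24% lower. At an unadjusted p under 0.05 in limma there were 4 of the 15, against 19.7% of all genes. Magi3, a scaffold protein of cell junctions with WW domains, measured 9.26, 9.29 and 9.28 in RD and 9.75, 9.78 and 9.61 in HFD. Its rise was 0.43 ± 0.07 (limma, adjusted p = 0.013), and the call was lost without RD replicate 1 (adjusted p = 0.058). Itch, a NEDD4 family ubiquitin ligase, measured 10.74, 10.78 and 10.89 in RD and 10.49, 10.46 and 10.43 in HFD. It fell by 0.34 ± 0.07 on the log2 scale (limma, adjusted p = 0.028), a call that no removal of a single array preserved (adjusted p up to 0.082). Named after their values were seen, Yap1 gave 0.07 ± 0.07, Nedd4 0.07 ± 0.08 and the YAP targets Ccn1 and Ccn2 0.17 ± 0.08 and 0.15 ± 0.20, none of which passed. The other YAP targets of the list did not pass either. Amotl2 went the other way, at -0.19 ± 0.08, and Ankrd1, dim at a mean log2 level of 5.88, gave 0.03 ± 0.08.

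**Figure D4:**
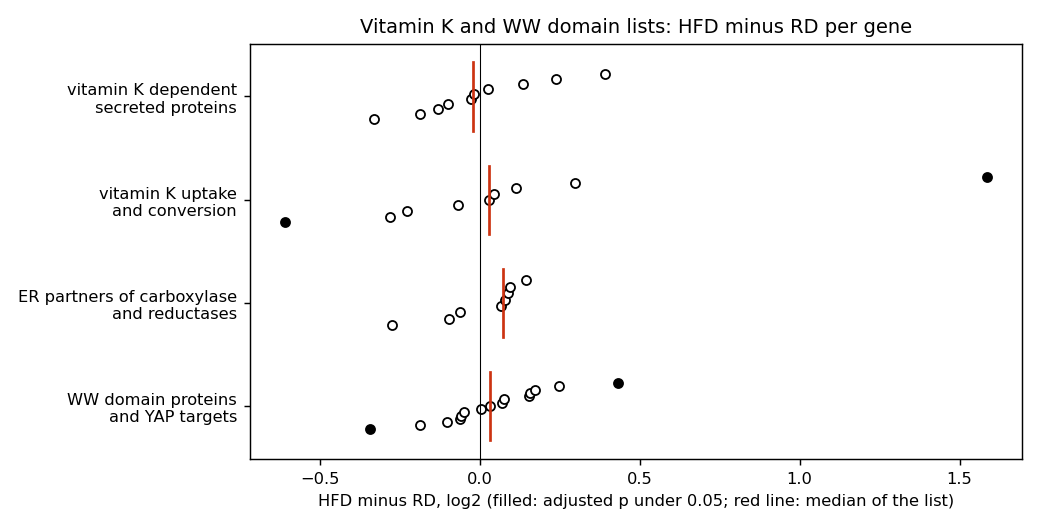
HFD minus RD on the log2 scale (x axis) for each measured gene of 4 lists around the vitamin K cycle and the Prrg tails (y axis). Filled points passed an adjusted p of 0.05 in limma and red lines are list medians. The filled points are Nqo1 (1.59), Cyp4f14 (-0.61), Magi3 (0.43) and Itch (-0.34).

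Among the lists of cell type markers, only those of cholangiocytes and Kupffer cells held genes that passed in limma, all of them higher in HFD. Over all genes 3.11% were higher at that threshold. An unadjusted p under 0.05 in limma was reached by 5 cholangiocyte and 6 Kupffer cell markers, and by 19.7% of all genes. Of 5 cholangiocyte markers measured, 5 rose, including the adhesion molecule Epcam (0.54 ± 0.10, adjusted p = 0.019, limma) and the keratin Krt19 (0.70 ± 0.14, adjusted p = 0.031, limma). The summed linear signal of these markers was 1003 to 1098 in RD and 1404 to 1494 in HFD, and the dimmest was Epcam, with a mean log2 level of 6.43, below the 95th percentile of the olfactory receptor genes. The count of risers was 0 without RD replicate 1 and 1 without each other single array. Of 7 Kupffer cell markers 4 rose, including the macrophage protein Cd5l (0.85 ± 0.12, adjusted p = 0.0066, limma) and the phosphatidylserine receptor Timd4 (0.67 ± 0.11, adjusted p = 0.016, limma). Their summed signal was 8886 to 9445 in RD and 10622 to 14416 in HFD, and the dimmest was Marco at 7.06. Here the count was 1 without RD replicate 1 or 2 and 2 without RD replicate 3 or HFD replicate 3. Removing HFD replicate 1 or RD replicate 1 or 2 ended the call of Epcam, removing any single array but RD replicate 2 ended that of Krt19, and removing RD replicate 1 or 2 ended that of Timd4.

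No marker of the other lists passed in limma, out of 8 for hepatocytes, 6 for sinusoidal endothelial cells, 5 for monocytes and neutrophils, 6 for stellate cells and 5 for lymphocytes. At an unadjusted p under 0.05, which 19.7% of all genes reached, there was 1, among the markers of monocytes and neutrophils. The median difference was 0.00 for hepatocytes, 0.05 for endothelial cells, 0.15 for monocytes and neutrophils, 0.03 for stellate cells and 0.09 for lymphocytes. The part of the cholangiocyte and Kupffer cell markers in the Prrg4 difference was not tested.

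**Figure D5:**
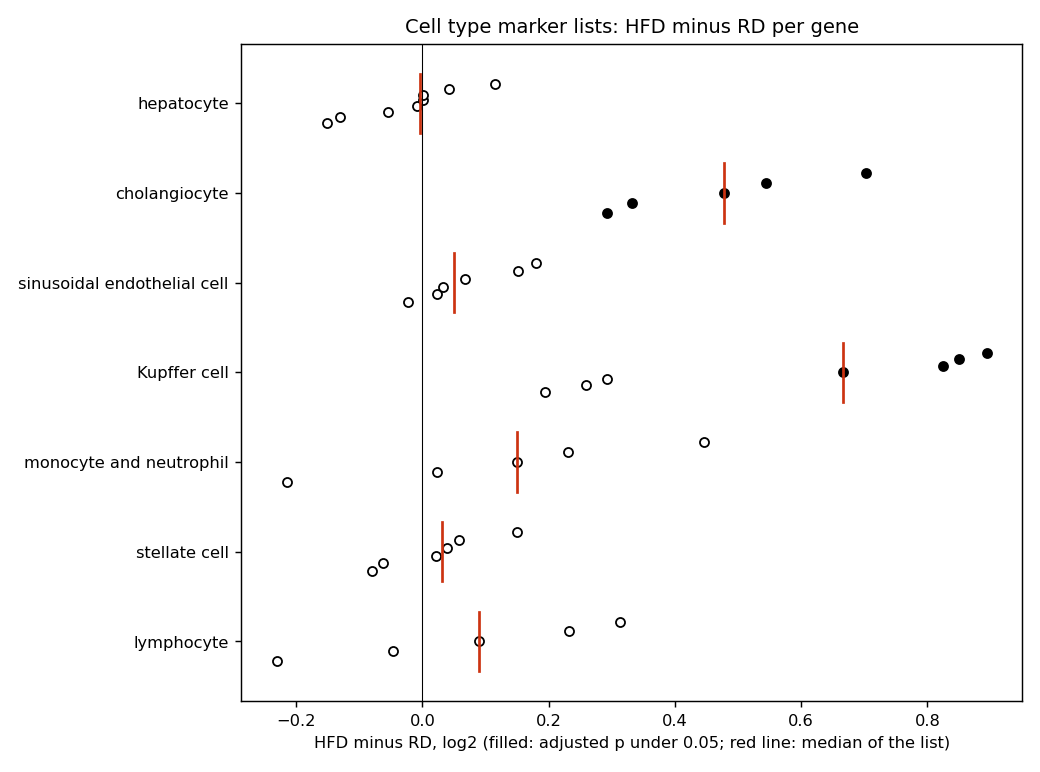
HFD minus RD on the log2 scale (x axis) for each measured marker of 7 liver cell types (y axis). Filled points passed an adjusted p of 0.05 in limma and red lines are list medians. All 5 cholangiocyte markers and 4 of 7 Kupffer cell markers are filled, and no marker of the other types is.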

How the data were processed

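The deposited table gives log2 signals, with 1 value for each probe set on each array. Per the labels, RNA was labelled with a kit for GeneChip arrays. How the authors summarised and normalized the signals is not stated here. The values were used as deposited, and base 2 was read from their range. Of 35512 rows, 21789 had 1 symbol in the platform annotation, 1621 had several and 12102 were not listed; 21698 matched RefSeq by gene identifier. The brightest probe set by mean over 6 arrays stood for each gene, with no filter on dim probe sets. Diet was fitted in limma 3.58.1 (R 4.3.3, lmFit and eBayes, two-sided), and p-values were adjusted by Benjamini-Hochberg across the 19938 genes. Excess changes of Prrg4 came from per-array differences in a linear model. Beside the 6 genes and Prrg1, up to 3 genes per pathway list and 2 per marker list with the smallest p among those passed are named, and the 5 nearest profiles without predicted or small RNA genes and receptors of smell. The genes, lists and motifs were chosen with earlier results of these data known; motifs were chosen after the profiles were seen. Some listed genes are not analysed here. The spread of Prrg4 without each array was added after seeing the data. The steps were tested on simulated data with 50 genes changed at each size among 19938. It gave 185 calls, against 1067 in these arrays, so its recovery rates may not carry over. In it 58% of changes of 0.5 log2 units and 94% of changes of 1 were recovered. A gene without a call may thus still differ by a small amount. The number of arrays limits the precision, and scan batches were not used here.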

Additional observations from a re-analysis of the deposited data

How the results depend on the processing

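The 6 differences of the Prrg and vitamin K cycle genes, and the excess of Prrg4 over the others, moved by less than 1 within-diet SD under every alternative run, except that Prrg3 is not among the brighter genes and that the excess, being the same values, was not recomputed for the brighter genes, every row or the trend and robust prior. The number of set genes past the all-gene threshold, from which nothing is read because Prrg4 was chosen on this contrast, was 2 among the brighter genes only and with an intensity trend and robust prior, where Vkorc1 joined. Testing every row of the table gave 168 higher and 173 lower, 0 higher and 0 lower in the WW domain list, 0 higher cholangiocyte markers and 1 higher Kupffer cell marker, Cd5l. The brighter genes leave out Krt7 and Epcam, at the 47.2nd and 30.7th percentile of all genes by mean signal. The other 3 cholangiocyte markers measured were all higher in that fit. No pairing of the arrays by replicate number was evident. Deviations from the diet means correlated at -0.11, 7.2e-05 and 0.12 for numbers 1 to 3, and at -0.12 to 0.13 for unlike numbers. With 3 arrays per diet these correlations cannot exclude a pairing. With the replicate number as a block, 318 genes were higher and 245 lower. In that fit 0 genes of the WW domain list were lower and 1 cholangiocyte marker was higher, with Krt19 no longer passing (limma, adjusted p = 0.072). The WW domain list held 2 higher genes among the brighter genes only and with the trend and robust prior, which added Nedd4l. The secreted list held 1 lower gene, Proz, among the brighter genes only and 2, Proz and F10, with the trend and robust prior. The uptake list held 2 higher genes (Nqo1 and Scarb1) with quantile normalization, among the brighter genes only and with the trend and robust prior, and under the last pair also 2 lower (Cyp4f14 and Lrp1). Without 1 array, 197 to 371 genes were higher and 178 to 273 lower, and the WW domain list held 0 to 1 higher and 0 lower. Apart from the markers left out among the brighter genes, the cause of these shifts was not tested.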
